A study of Mus musculus with 4 samples.

Results

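Rabgef1, Nfe2l3, 1700001K19Rik, Pcp4l1 and Cstdc5 are 5 genes of the 32285 in the deposited matrices. They were selected on their values in these same libraries: more transcript in mutant than in control noses over several cell classes, at a position outside the chromosome segment around Sox10. They carry the working name of genes raised across cell classes, and the question put to them was whether the mutant excess is uniform over cell types, as a difference between lines or strains would give, or specific to a cell type. The contrast that chose them is the one between mutants and controls, so their values in it are given as a description and not as evidence. By the order of the libraries, the working name described Rabgef1 in every cell type compared. On the same measure it described Nfe2l3, 1700001K19Rik and Pcp4l1 in most of them, in part on few counts. It did not describe Cstdc5, a gene of keratinocytes here.

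Noses of mouse embryos, taken whole at embryonic day 14.5 (E14.5), were dissociated with papain, frozen, and profiled as single cells with a droplet assay that reads the 3-prime end of transcripts. Control 1 and control 2 are labelled C57Bl/6J. Mutant 1 and mutant 2 carry Tg(Sox10-cre)1Wdr with floxed Yap and floxed Taz (Yapflox and Tazflox in the labels), on C57Bl/6J. The series design gives other genotypes: controls that are yap flox/flox and taz flox/flox without Cre, and mutants that are Sox10cre with yap flox/WT and taz flox/flox. If the design text holds, all groups carry floxed alleles and the mutants keep a wild-type Yap allele. If the sample labels hold, floxed alleles and Cre both separate the groups. The Cre is driven by Sox10, which is expressed in neural crest cells, so recombination is not meant to reach every cell of a whole nose. The labels mention 2 noses per genotype and do not say whether a library is a single nose, so p-values measure only the spread between these libraries.

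YAP and TAZ are coactivators without DNA binding of their own that act through TEAD transcription factors. The neural crest gives rise to glia, melanocytes and much of the cartilage, bone and connective tissue of the face, whereas endothelium, macrophages and epidermal keratinocytes come from other sources. Rabgef1 encodes Rabex-5, an exchange factor that activates the small GTPase RAB5 on early endosomes and is known as a restraint on mast cell activation. Nfe2l3 encodes NRF3, a CNC-type basic leucine zipper factor that pairs with small MAF proteins on antioxidant response elements. Pcp4l1 encodes a small IQ-motif protein related to PCP4. Cstdc5 belongs to the stefin A family of cysteine protease inhibitors, which are prominent in stratified epithelium and in neutrophils. 1700001K19Rik is annotated as a protein-coding gene, and no role is given for it here.

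The 5 genes lie on 5 chromosomes, none of them the chromosome 15 of Sox10 (chr15:79154908-79165240, minus strand). On GRCm38 with GENCODE M21, Rabgef1 (ENSMUSG00000025340) is at chr5:130171798-130214342 on the plus strand and Nfe2l3 (ENSMUSG00000029832) at chr6:51432670-51458768 on the plus strand. 1700001K19Rik (ENSMUSG00000056508) is at chr12:110667688-110682619, Pcp4l1 (ENSMUSG00000038370) at chr1:171173262-171196268 and Cstdc5 (ENSMUSG00000071561, named BC100530 in that annotation) at chr16:36359382-36367748, all on the minus strand. Cstdc5 overlaps Gm15845 on the opposite strand. Of the distinct 31-base words in the last 500 bases of its annotated transcripts, 44.9% also occur in transcripts of 6 other genes, and 35.5% occur in Stfa1. Cstdc5 counts are therefore uncertain where these genes share sequence, and how such reads were assigned was not tested. The other 4 genes shared none of these words with another gene.

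The 250 bases before the start of each gene in the RefSeq promoter table (GRCm38.p6) were read, and all 5 genes matched there by symbol. For Cstdc5 and Rabgef1 the RefSeq start lies inside the GENCODE gene given above, so part of each window does too. Those that hold the core letters GGAATG of the TEAD motif, on either strand (CATTCC in reverse), are shown because TEAD factors are the route by which YAP and TAZ reach DNA. Capitals mark this motif, and in the Nfe2l3 sequence also the TATA box letters TATAAA. The windows are chr5:130171569-130171818 (plus strand) for Rabgef1, chr6:51432419-51432668 (plus strand) for Nfe2l3 and chr16:36367571-36367820 (minus strand) for Cstdc5, each written 5′ to 3′ on the gene's strand. For Rabgef1 the table holds 3 entries and the one nearest the annotated start was used.
Rabgef1: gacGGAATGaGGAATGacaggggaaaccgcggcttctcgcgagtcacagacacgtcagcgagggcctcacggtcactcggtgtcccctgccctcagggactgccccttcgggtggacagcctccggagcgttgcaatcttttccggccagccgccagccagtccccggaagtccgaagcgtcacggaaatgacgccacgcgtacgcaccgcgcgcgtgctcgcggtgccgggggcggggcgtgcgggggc
Nfe2l3: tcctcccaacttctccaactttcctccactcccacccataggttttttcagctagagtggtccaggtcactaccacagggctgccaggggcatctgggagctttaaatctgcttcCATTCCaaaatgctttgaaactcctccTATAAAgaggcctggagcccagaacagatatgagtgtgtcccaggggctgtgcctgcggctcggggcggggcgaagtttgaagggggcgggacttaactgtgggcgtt
Cstdc5: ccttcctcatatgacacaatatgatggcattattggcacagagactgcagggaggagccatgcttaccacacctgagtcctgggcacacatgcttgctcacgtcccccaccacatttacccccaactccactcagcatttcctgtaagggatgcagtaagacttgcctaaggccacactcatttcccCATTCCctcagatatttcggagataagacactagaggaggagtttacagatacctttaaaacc
GGAATG or its reverse occurred in these 3 windows of the 5 genes, against 12.6% of the 32851 promoters of the table at the same length. Rabgef1 held the letters at -247 and -240 from the RefSeq start, Nfe2l3 at -135 and Cstdc5 at -63. The Cstdc5 match lies inside the GENCODE gene. The Pcp4l1 and 1700001K19Rik windows did not hold them. TATAAA, searched on both strands, occurred in Nfe2l3 alone, at -108, against 12.4% of all promoters. The antioxidant response element core TGACNNNGC, on either strand, was in none of the 5 windows and in 10.2% of all. The SOX core ACAATG, on either strand, was in none of the 5 and in 10.7% of all. The searched motifs did not overlap each other in these windows. Such a match describes letters in a sequence and is not a binding site. The Rabgef1 window was GC-rich at 69.2%, and the other 4 lay between 48.8% and 57.2%, around the median of 52.4% over all promoters.

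Barcodes were retained where 500 or more genes were detected and mitochondrial transcripts made up no more than 10%, which left 4075 and 2474 control cells and 2995 and 4195 mutant cells, and 19767873 to 35331450 unique transcript counts (UMIs, a tag per captured molecule) per library. Median depth was lowest in mutant 2, at 5282 UMIs per cell, and highest in mutant 1, at 8549. Cells were assigned to a type by a marker gate, which asks for UMIs of at least 3 markers of a type and at least 2 more than of any other type except mesenchyme. Mesenchyme was compared last by the same numbers, among cells with fewer than 3 markers of every other type. A cell in any other gate could therefore hold any number of mesenchyme markers. Between 84.3% and 88.1% of the cells of a library passed a gate. A gate was compared if each library had 20 or more cells in it, and 9 were: mesenchyme, chondrocyte, osteoblast, glia, mural cell, endothelium, macrophage, keratinocyte and neuron. Of the defining markers of each gate, 1 of 10 neuron markers was at 0 in mutant 1 and all others were detected in their own gate in every library. The neuron gate also carried mesenchyme markers, which summed to 1014 to 2171 CPM (counts scaled to a common library total of 1e6) there against 2688 to 3055 CPM in the mesenchyme gate, so its values are those of a mixed gate. Pairs of libraries shared 4 to 8 cell barcodes. The targeted genes separated the groups weakly: Yap1 was at 65.0 and 65.2 CPM in controls against 56.4 and 56.0 CPM in mutants over all cells, and Wwtr1 (Taz) at 118 and 145 CPM against 123 and 132 CPM. The sources used here do not say which exons are floxed, so 3-prime reads of these genes do not check the labels. Levels are CPM of the summed UMIs of a library's cells in a gate. Because whole noses were dissociated, a change over all cells can come from more cells of a type or more transcript per cell, and the gates address the first only as far as their markers do.

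Over all retained cells, both mutant libraries stood above both controls for each of the 5 genes, a pattern that chose them and that 24.9% of the 18080 genes tested showed. Rabgef1 was at 21.0 and 18.5 CPM in controls against 45.5 and 40.0 CPM in mutants, a log2 difference of 1.07 ± 0.11 (SE, n = 2 against 2). Nfe2l3 was at 9.85 and 8.20 CPM against 18.1 and 17.9 CPM, or 0.95 ± 0.13. 1700001K19Rik was at 8.07 and 6.02 CPM against 15.1 and 13.4 CPM, or 0.97 ± 0.17. These 3 genes thus differed by close to the same factor. Pcp4l1 was at 9.59 and 9.71 CPM against 27.0 and 20.9 CPM, a log2 difference of 1.27 ± 0.15. Cstdc5 was at 27.2 and 16.7 CPM against 44.8 and 41.7 CPM, or 0.93 ± 0.21. The gap between the groups was larger than the spread within either group for all 5 genes. None of the 18080 genes passed an adjusted p of 0.05 with edgeR's quasi-likelihood test, 883 had an unadjusted p under 0.05, and 30 genes passed with DESeq2. With control 1 left out, edgeR passed 410 genes. Adjusted p-values of the 5 genes with edgeR ran from 0.445 for Rabgef1 to 0.909 for Cstdc5 and 1700001K19Rik, while 4 of them passed with DESeq2, down to an adjusted p of 2.41e-07 for Rabgef1.

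**Figure D1:**
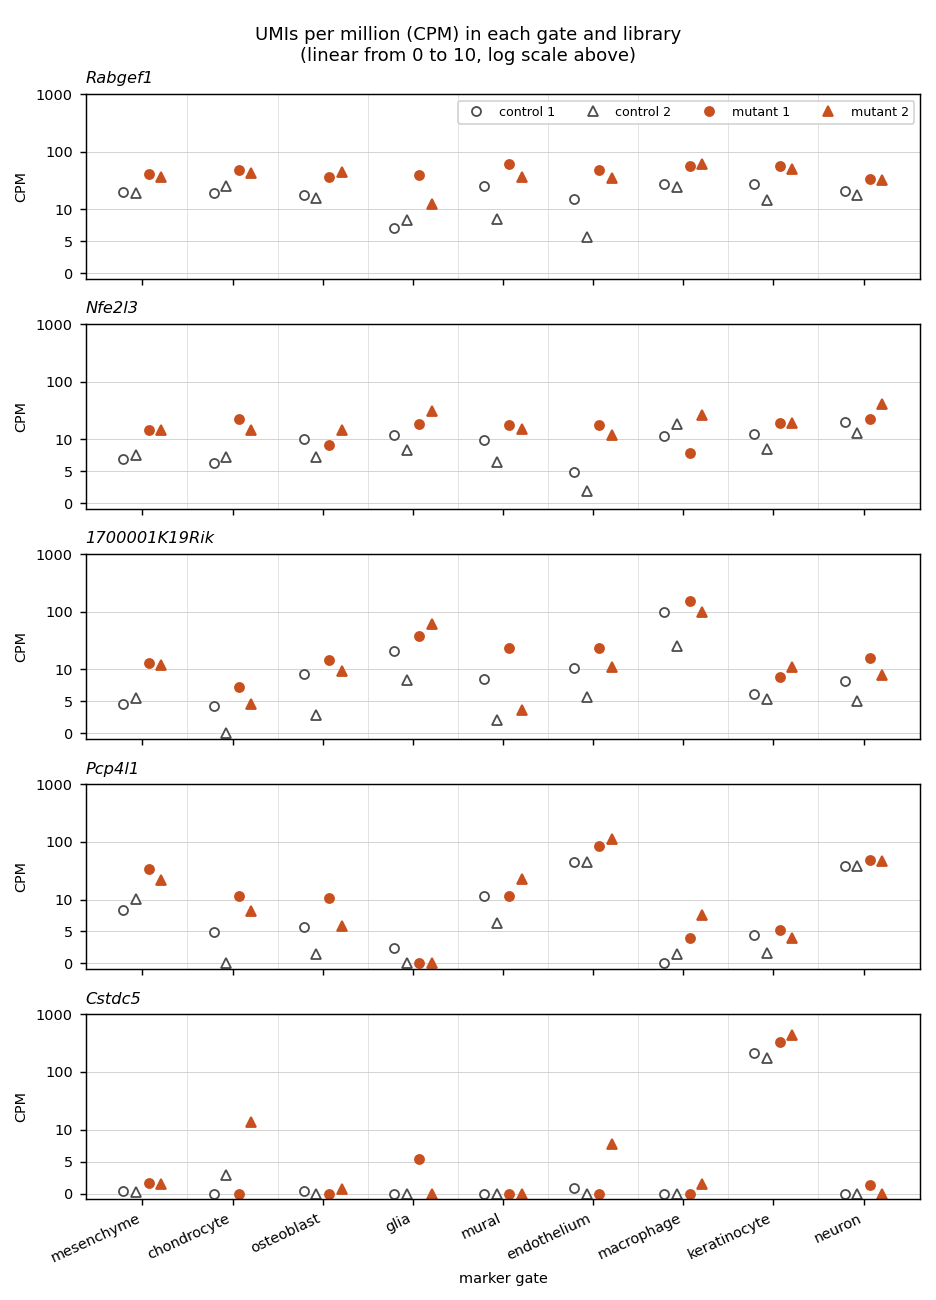
CPM of each gene (panels; linear to 10, logarithmic above) in the 9 marker gates, with open grey circles and triangles for control 1 and control 2 and filled orange circles and triangles for mutant 1 and mutant 2. Rabgef1 lay at 5.75 to 27.9 CPM in control points and 12.3 to 61.6 CPM in mutant points, while Cstdc5 exceeded 100 CPM in the keratinocyte gate alone.

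Rabgef1, the RAB5 exchange factor, was the broadest of the 5. Both mutant libraries were above both controls in 9 of 9 gates, an order shown by 25.8% of the genes tested in mesenchyme, 18.7% in chondrocytes, 20.3% in osteoblasts, 20.5% in glia, 22.8% in mural cells, 17.6% in endothelium, 16.7% in macrophages, 19.4% in keratinocytes and 17.8% in the neuron gate. In mesenchyme the levels were 20.3 and 19.04 CPM in controls against 41.0 and 36.8 CPM in mutants, a ratio of pooled counts of 1.98 (exact 95% interval 1.79 to 2.19, counting error only, as for all ratios here). The skeletal types derived in part from the crest had like ratios. Chondrocytes held 19.1 and 26.0 CPM against 49.0 and 43.2 CPM, a ratio of 2.13 (1.46 to 3.14). Osteoblasts held 17.8 and 15.9 CPM against 37.1 and 44.5 CPM, a ratio of 2.37 (1.70 to 3.34). In mural cells, which wrap vessels, the levels were 25.5 and 8.54 CPM against 60.4 and 37.3 CPM, a ratio of 2.59 (1.55 to 4.49).

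The gates of cell types that arise outside the crest showed the Rabgef1 difference as well. In macrophages the controls had 27.9 and 24.4 CPM and the mutants 57.6 and 61.6 CPM, a ratio of 2.28 (1.51 to 3.47). In keratinocytes the values were 27.4 and 14.8 CPM against 56.6 and 50.0 CPM, a ratio of 2.18 (1.77 to 2.69). In endothelium they were 14.9 and 5.75 CPM against 47.7 and 35.1 CPM, a ratio of 3.36 (2.07 to 5.70). In each of these gates the lower mutant was above the higher control. Glia gave 3 and 2 UMIs in controls and 15 and 2 in mutants, or 7.04 and 8.35 CPM against 40.2 and 12.3 CPM, so this ratio of 4.22 (1.50 to 14.6) rests mostly on mutant 1. The mixed neuron gate had the smallest Rabgef1 ratio, 1.64 (0.978 to 2.80), from 21.1 and 18.0 CPM against 33.2 and 32.7 CPM. The interval of the ratio was above 1 in 8 of the 9 gates.

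Nfe2l3, the CNC factor, had both mutants above both controls in 7 of 9 gates, and the interval of its ratio was above 1 in 5. The shares of genes with this order, given above for each gate, cover only genes that met edgeR's filter on low counts. Nfe2l3 met that filter in 7 gates. In mesenchyme it was at 6.89 and 7.55 CPM in controls against 14.9 and 14.6 CPM in mutants, a ratio of 2.06 (1.74 to 2.44). In chondrocytes it was at 6.36 and 7.22 CPM against 23.0 and 14.7 CPM, a ratio of 2.70 (1.40 to 5.48). In endothelium it was at 4.97 and 1.92 CPM against 17.6 and 12.0 CPM, a ratio of 3.59 (1.55 to 9.67), the largest among the gates. Keratinocytes had a smaller ratio of 1.67 (1.21 to 2.31), from 12.7 and 8.59 CPM against 19.7 and 19.5 CPM. Glia had 5 and 2 UMIs against 7 and 5, and mural cells 7 and 3 UMIs against 9 and 8, too few to place either ratio above 1. The neuron gate was at 19.97 and 12.9 CPM against 22.6 and 41.8 CPM. Groups overlapped in the osteoblast gate, at 10.1 and 7.21 CPM against 9.06 and 14.4 CPM, and in the macrophage gate, at 11.4 and 18.3 CPM against 7.94 and 27.0 CPM. The ratios there were 1.27 (0.751 to 2.16) and 1.29 (0.679 to 2.47), and mutant 1 lay below at least 1 control in both.

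1700001K19Rik also had both mutants above both controls in 7 of 9 gates, at low counts outside mesenchyme and macrophages. It met the edgeR filter in 6 gates and had this order in 5 of them. In the chondrocyte gate it had 6 and 0 UMIs in controls against 5 and 5 in mutants. The interval of its ratio was above 1 in 4 gates, among them macrophages, where the groups overlapped. In mesenchyme it was at 4.65 and 5.54 CPM in controls against 13.0 and 12.0 CPM in mutants, a ratio of 2.50 (2.06 to 3.04). In glia it was at 21.1 and 8.35 CPM against 37.5 and 61.6 CPM, a ratio of 2.71 (1.28 to 6.13) on 35 UMIs. In keratinocytes it was at 6.11 and 5.46 CPM against 8.79 and 10.9 CPM, a ratio of 1.63 (1.03 to 2.60). The ordering of libraries was the same in the chondrocyte, osteoblast, endothelium and neuron gates, but there the interval of the ratio reached below 1. The macrophage gate held its highest levels. Controls had 100.2 and 25.9 CPM and mutants 153 and 97.7 CPM, so control 1 lay above mutant 2 and the groups overlapped, although the pooled ratio was 1.83 (1.40 to 2.39). Mural cells overlapped as well, at 8.49 and 2.13 CPM against 23.4 and 3.73 CPM.

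Pcp4l1, the IQ-motif gene, had both mutants above both controls in 7 of 9 gates. Its counts met the edgeR filter in 4 gates. The interval of its ratio was above 1 in 4 gates, mesenchyme, endothelium, chondrocyte and macrophage. More of its UMIs lay in mesenchyme than in any other gate. There it was at 8.36 and 10.1 CPM in controls against 34.3 and 21.9 CPM in mutants, a ratio of 3.15 (2.74 to 3.63) on 263 control and 870 mutant UMIs. Mesenchyme held 72.2% of its UMIs in mutant 1 and 54.0% in mutant 2. In endothelium it was at 45.5 and 44.1 CPM against 86.0 and 113 CPM, a ratio of 2.24 (1.72 to 2.94). These 2 gates had the most Pcp4l1 UMIs. In the neuron gate, where control levels were nearly as high as in endothelium, it was at 38.8 and 38.6 CPM against 47.8 and 47.3 CPM, a ratio of 1.23 (0.830 to 1.83). In keratinocytes it was at 4.53 and 1.56 CPM against 5.27 and 3.91 CPM, a ratio of 1.21 (0.649 to 2.26) with overlapping groups. Glia had a single Pcp4l1 UMI over all libraries, in control 1. In the chondrocyte, osteoblast, mural and macrophage gates the mutants were above the controls on 1 to 15 UMIs per group of controls and 7 to 22 per group of mutants, and the lower bounds of the ratio were 0.819 to 1.13. The macrophage ratio was the highest of any gate, 8.65 with an interval of 1.11 to 390, on 1 control and 7 mutant UMIs.

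**Figure D2:**
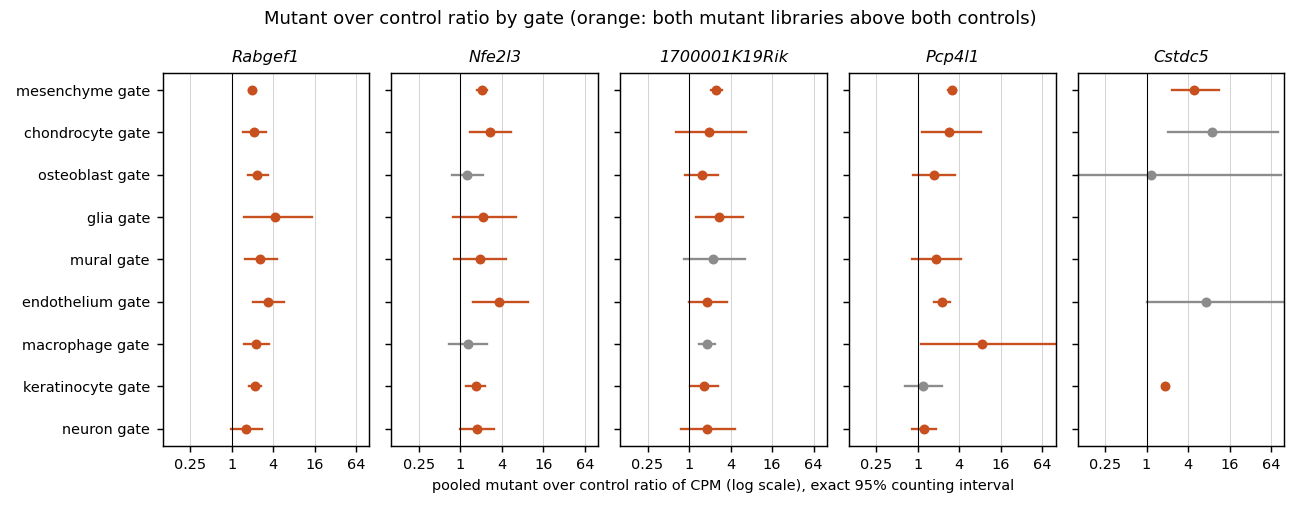
Mutant to control ratio of pooled UMIs scaled to total UMIs (logarithmic axis) of each gene in each gate, with exact 95% intervals of counting error clipped at 0.1 and 100, orange where both mutants were above both controls and grey where the groups overlapped. Rabgef1 ratios ran from 1.64 to 4.22 over the 9 gates, whereas those of Pcp4l1 ran from 1.21 in keratinocytes to 3.15 in mesenchyme among the 4 gates where its counts met the edgeR filter.

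Within mesenchyme the Pcp4l1 difference was followed in cells that held a UMI of each of 10 genes that mark regions of facial mesenchyme. These cell sets overlap and were chosen with results known. In cells with Osr1 it was at 15.7 and 17.4 CPM in controls against 50.3 and 36.5 CPM in mutants, a ratio of 2.72 (2.28 to 3.26). In cells without Osr1 it was at 4.80 and 5.50 CPM against 22.1 and 14.5 CPM, a ratio of 3.62 (2.87 to 4.59). The share of mesenchyme cells with an Osr1 UMI was 30.5% and 36.1% in controls and 41.3% and 32.3% in mutants, so the groups overlapped in it. Cells with Shox2, a palatal factor, had 4.77 and 6.69 CPM against 28.4 and 17.0 CPM, a ratio of 4.29 (3.09 to 6.07). Cells with Pou3f4 or Osr2 were likewise higher in both mutants. Cells with Foxl2 had the highest ratio, 8.15 (1.74 to 76.5), at low levels of 1.08 and 0 CPM against 3.45 and 6.69 CPM. Cells with Agtr2 were low in every library, at 3.68 and 2.15 CPM against 4.33 and 5.08 CPM, a ratio of 1.49 (0.742 to 3.06). Cells with Itgbl1, Crym or Cldn11 showed overlapping groups and pooled ratios of 0.345 to 0.870, all with intervals that include 1. Groups overlapped in cells with Pax9 too, at 0.404 and 2.81 CPM against 7.39 and 0.619 CPM. Cells with Cldn11 were at 7.66 and 8.23 CPM in controls against 7.90 and 5.98 CPM in mutants.

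Pcp4l1 thus had both mutants above both controls in 6 of the 10 region sets and overlapped in 4, with ratios of 0.345 to 8.15. In the same sets Rabgef1 was higher in both mutants in 10 of 10, with ratios of 1.71 to 3.42, and 1700001K19Rik in 10 of 10, with ratios of 1.83 to 3.53. Nfe2l3 was higher in 9 of 10 and overlapped in cells with Crym. The region sets are overlapping parts of the mesenchyme gate, in which 25.8% of the genes tested had both mutants above both controls. Shares of all genes within the sets were not counted. No test of the difference between region sets was run. In endothelium, cells with the glucose transporter gene Slc2a1, which marks brain-type vessels, held Pcp4l1 at 53.2 and 68.5 CPM in controls against 89.7 and 119 CPM in mutants. Endothelial cells without it held 18.6 and 4.99 CPM against 64.5 and 83.5 CPM.

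**Figure D3:**
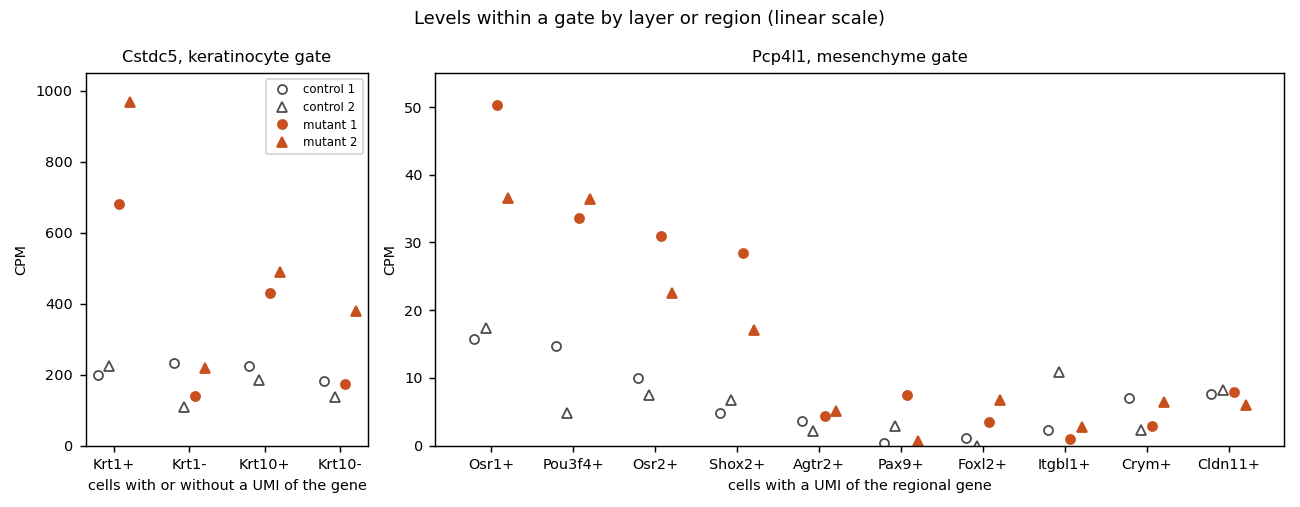
Left, Cstdc5 CPM (linear) in keratinocyte-gated cells with and without a UMI of Krt1 or Krt10; right, Pcp4l1 CPM (linear) in mesenchyme-gated cells with a UMI of each of 10 regional genes, with grey open symbols for the 2 controls and orange filled symbols for the 2 mutants. Cstdc5 in cells with Krt1 was at 198 and 226 CPM in controls against 681 and 968 CPM in mutants, and the groups overlap in cells without Krt1.

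Cstdc5, the stefin, was a keratinocyte gene in these data. The keratinocyte gate held 98.6% and 67.4% of its UMIs in controls and 72.3% and 90.2% in mutants. There it was at 214 and 174 CPM in controls against 332 and 439 CPM in mutants, a ratio of 1.85 (1.72 to 1.99). Both mutants were above both controls in 2 of 9 gates, keratinocyte and mesenchyme. In mesenchyme the levels were 0.412 and 0.168 CPM against 1.57 and 1.44 CPM, on 7 and 2 UMIs in controls and 26 and 20 in mutants, which gave a ratio of 4.87 (2.35 to 11.3). The mesenchyme gate held keratinocyte-list markers at 62.7 and 54.1 CPM in controls against 59.4 and 59.2 CPM in mutants. Per 100 keratinocyte-list UMIs, Cstdc5 had 0.658 and 0.310 UMIs in mesenchyme controls and 2.65 and 2.44 in mesenchyme mutants, below the 2.81 to 6.72 of the keratinocyte gate. Whether these few UMIs come from free keratinocyte transcript was not tested. Mural cells had no Cstdc5 UMI in any library, and glia, macrophages and neurons had none in the controls and 1 or 2 in the mutants. In chondrocytes and endothelium, mutant 2 alone stood out, with 15 and 9 UMIs.

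Over the whole nose, a few single cells held much of the Cstdc5. A cell of control 2 in no gate held 103 of its Cstdc5 UMIs, 31.1% of that library's total. A neutrophil-gated cell of mutant 1 held 327, or 25.1%. Both cells also held Stfa1, Stfa2, Stfa2l1 and Cstdc4 and no Krt5, and were found after looking at the cells with the most Cstdc5. Without these 2 cells the levels were 27.2 and 11.5 CPM in controls against 33.6 and 41.7 CPM in mutants, a ratio of 1.74 (1.62 to 1.87) against 1.85 with them. In each library 49.1% to 90.6% of the Cstdc5 UMIs came from 10 cells, so its counting intervals understate the error between cells.

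Inside the keratinocyte gate, Cstdc5 was higher in mutants in the cells that held a UMI of Krt1, a keratin of the layers above the basal one. Those cells had 198 and 226 CPM in controls against 681 and 968 CPM in mutants, a ratio of 3.88 (3.53 to 4.28). Cells without Krt1 had 231 and 108 CPM against 141 and 220 CPM, so the groups overlapped. Leaving out the 2 cells with the most Cstdc5 in each library gave 160 and 107 CPM against 511 and 782 CPM in cells with Krt1, and 90.0 and 12.7 CPM against 85.5 and 143 CPM in cells without it. Cells with Krt1 made up 43.1% and 48.5% of the gate in controls and 35.6% and 30.0% in mutants, a smaller share. Krt1 itself was higher over the gate, at 290 and 280 CPM in controls against 510 and 409 CPM in mutants, so the set of cells with a Krt1 UMI was not alike between the groups. Krt10, the partner keratin of Krt1, was also higher in those cells, at 701 and 403 CPM in controls against 1908 and 1692 CPM in mutants. The part of these keratins in the Cstdc5 difference was not tested. With the cells split by Krt10 instead, Cstdc5 was at 224 and 186 CPM against 429 and 489 CPM with Krt10, and at 181 and 136 CPM against 173 and 378 CPM without it.

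Of 9 other stefins counted in the cells with Krt1, 7 had both mutants above both controls (Stfa1, Stfa2, Stfa2l1, Stfa3, Csta1, Csta3 and Cstdc6), and Csta2 and Cstdc4 overlapped. Over the whole keratinocyte gate 19.4% of the genes tested had this order, and the share within the cells with Krt1 was not counted. Only Stfa1, Stfa3 and Csta1 had more than 20 UMIs in each group. Stfa1 was at 49.5 and 117 CPM in controls against 208 and 141 CPM in mutants, Stfa3 at 91.6 and 117 CPM against 177 and 282 CPM, and Csta1 at 16.2 and 6.96 CPM against 33.8 and 35.6 CPM. Stfa1 shares sequence with Cstdc5, so the counts of these paralogs cannot be taken as independent. Rabgef1 in the keratinocyte gate was higher in both mutants with and without Krt1, at ratios of 2.01 and 2.41. For Nfe2l3 the groups separated in the cells without Krt1. It was at 12.3 and 12.5 CPM against 14.9 and 11.9 CPM in cells with Krt1, where the groups overlapped, and at 13.1 and 3.55 CPM against 22.3 and 22.7 CPM in cells without it.

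The difference of the mutant effect between gates was tested in a joint edgeR model with library as a block, over 12424 genes, of which 10 (0.0805%) passed and 646 had an unadjusted p under 0.05. With control 1 left out 190 passed, and with mutant 1 left out 1 passed. None of the 5 genes passed in any of these. The edgeR joint p-values were 0.147 for Pcp4l1, 0.460 for Rabgef1, 0.488 for Cstdc5, 0.540 for Nfe2l3 and 0.998 for 1700001K19Rik, and each became 1 after adjustment. Each gate was also set against mesenchyme, where edgeR passed 2 of the 12424 genes in endothelium (0.0161%), 7 in macrophages (0.0563%) and 0 in the other 6 gates, and none of the 5 genes in any. The log2 difference of Pcp4l1 relative to that in mesenchyme was -1.29 ± 0.47 in the neuron gate (an unadjusted edgeR p-value of 0.0113, adjusted p = 1). It was -1.22 ± 0.61 in keratinocytes (an unadjusted edgeR p-value of 0.0563, adjusted p = 1) and -0.35 ± 0.40 in endothelium. That of Rabgef1 was 0.91 ± 0.42 in endothelium (an unadjusted edgeR p-value of 0.0388, adjusted p = 0.995). That of Cstdc5 was -1.15 ± 0.66 in keratinocytes (an unadjusted edgeR p-value of 0.0966), on the few mesenchyme UMIs above. For Nfe2l3 these differences from mesenchyme ran from -0.65 to 0.90 over the gates, and for 1700001K19Rik from -0.39 to 0.24. A uniform excess and one that varies up to these sizes between gates could not be told apart with 2 libraries per group.

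Within single gates, edgeR passed none of the 27 values of the 5 genes that met its count filter, which Rabgef1 met in 8 gates, Nfe2l3 in 7, 1700001K19Rik in 6, Pcp4l1 in 4 and Cstdc5 in 2. The lowest edgeR adjusted p was 0.0856, for Rabgef1 in mesenchyme, with a log2 difference of 0.95 ± 0.11. With a library left out, between 2 and 14 values of the 5 genes passed, counting those over all cells, the most without control 1. The test called few genes higher anywhere: 17 of 7389 (0.23%) in mural cells, 3 of 11721 (0.0256%) in keratinocytes, 1 of 9102 (0.011%) in endothelium, 1 of 15634 (0.0064%) in mesenchyme and 0 in the other 5 gates, where 171 to 482 genes had an unadjusted p under 0.05. With DESeq2, Cstdc5 passed in keratinocytes (adjusted p = 0.00192), and in mesenchyme Pcp4l1 (4.25e-06), Rabgef1 (0.000382) and 1700001K19Rik (0.0157) passed. Of the 4495 genes tested in all 9 gates, the median gene had both mutants above both controls in 1 gate, 29 genes in 7 or more, and 5 genes in all 9: Eif3l, Polr2f, Gm10076, Gm10260 and Mat2a. Eif3l and Polr2f lie beside Sox10.

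Levels between cell types were compared in the controls alone, a comparison that did not choose the genes. Among 11435 genes, 68.2% differed between gates in a joint edgeR test. Cstdc5 (edgeR adjusted p = 4.99e-10), Pcp4l1 (9.22e-06) and 1700001K19Rik (1.55e-05) differed. Cstdc5 was at 194 ± 28.5 CPM in keratinocytes (SD, n = 2 libraries) and at most 1.44 CPM on average in any other gate. Pcp4l1 was highest in endothelium, at 44.8 ± 1.03 CPM, and the neuron gate, at 38.7 ± 0.132 CPM, followed by mesenchyme at 9.25 ± 1.26 CPM, mural cells at 8.86 ± 3.48 CPM and the other 5 gates at 0.763 to 3.55 CPM. Mesenchyme and mural cells did not differ beyond their spread. 1700001K19Rik was highest in macrophages, at 63.0 ± 52.5 CPM, followed by glia at 14.7 ± 9.03 CPM and the remaining gates at 2.12 to 8.26 CPM. Glia overlapped the gates that follow them in this order.

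Nfe2l3 differed between control gates at an edgeR adjusted p of 0.0465, which did not hold without the count filter (0.0964) or with looser gates (0.0532). It ran from 16.4 ± 5.03 CPM in the neuron gate and 14.9 ± 4.87 CPM in macrophages down to 7.22 ± 0.466 CPM in mesenchyme and 3.44 ± 2.16 CPM in endothelium. Rabgef1 was the most even, with an edgeR adjusted p of 0.112. It ran from 26.1 ± 2.47 CPM in macrophages through chondrocytes, keratinocytes, mesenchyme, neuron, mural and osteoblast gates, at 22.5 to 16.8 CPM, to 10.3 ± 6.47 CPM in endothelium and 7.70 ± 0.928 CPM in glia. Most neighbours in that order lay within each other's spread.

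Genes near each member on its chromosome were examined next, to see whether neighbours differed along with it. Of the 10 annotated features on each side of each gene, 77 of 100 were tested over all retained cells. Both mutants were above both controls in 15 of them (19.5%, against 24.9% of all genes tested). They were below both controls in 16 of the 77, against 13.0% of all genes tested. The median log2 difference of the 77 was -0.02 against 0.00 for all genes. Of all genes tested, 7.84% had separate groups and a log2 difference of at least 0.5 in size. None passed the edgeR threshold, as for all genes. Around Rabgef1, 4 neighbours of 19 were higher and 5 lower, and Gm29681 alone reached a log2 difference of 0.5 in size with separate groups, at -0.51. Around Nfe2l3, Gm6559 (-0.87) and Hotairm1 (-1.13) did. Around Cstdc5, a stefin gene cluster, Stfa3 (0.61), Gm49662 (-1.81) and Ildr1 (0.66) did. Around Pcp4l1, Fcrla (-0.66), Fcgr4 (-1.39) and Apoa2 (-0.96) did, all lower in mutants. Around 1700001K19Rik, 4 of 14 neighbours were higher and none lower, with 4921507G05Rik at 1.12 (edgeR adjusted p = 0.909). Of these named neighbours, Gm6559, Gm49662, Fcgr4 and 4921507G05Rik were at about 1.01 CPM or less in every library. Hsp90aa1, 22.9 kb from 1700001K19Rik, had a log2 difference of 0.05. The 4 genes of the Sox10 neighbourhood (Eif3l, Micall1, 1700088E04Rik and Polr2f), which share these controls, were all higher in both mutants, with a median log2 difference of 1.01.

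**Figure D4:**
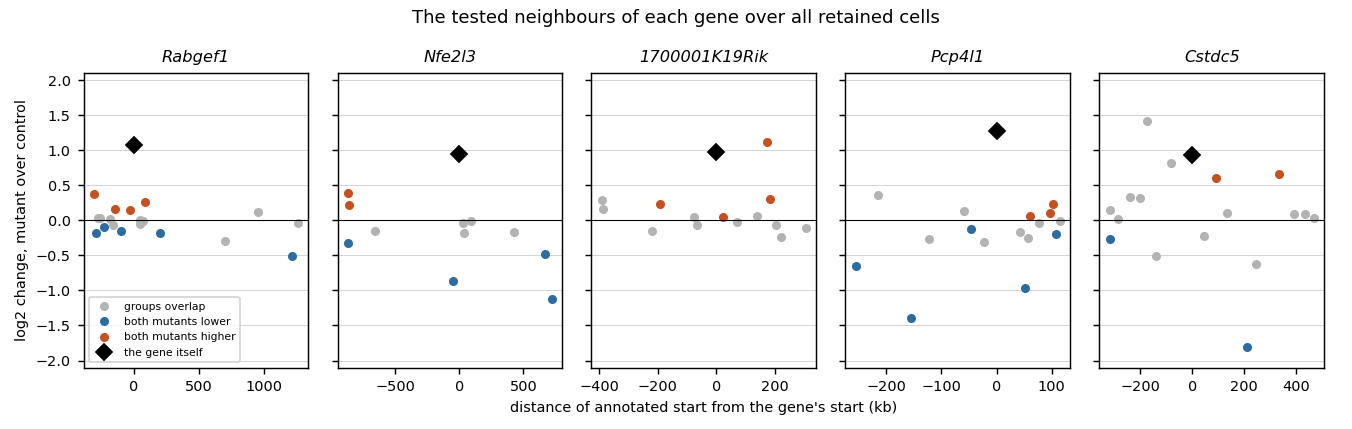
Log2 difference of mutant over control over all retained cells against the distance of the annotated start (kb) from each gene, with black diamonds for the 5 genes, orange or blue for neighbours with both mutants above or below both controls and grey for overlapping groups. The 5 diamonds lie at 0.93 to 1.27, and the median of the 77 tested neighbours is -0.02.

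The other genes of each member's pathway were counted over all retained cells, beside the 24.9% of all genes that were higher in both mutants and the 13% that were lower in both. None of them passed the edgeR threshold. Of the RAB5 list of early endosome genes, 17 were tested, 6 were higher in both mutants and 2 lower, with a median log2 difference of 0.01. Kctd7, among these 6, is also a chromosome neighbour of Rabgef1 and was counted there too. Of the CNC factors, partners and antioxidant targets, 15 were tested, 3 were higher and 2 lower, with a median of -0.07. Nqo1, an antioxidant target, was at 4.92 and 3.79 CPM in controls against 6.28 and 5.77 CPM in mutants, whereas Srxn1, another, was at 3.00 and 3.39 CPM against 2.30 and 2.60 CPM. Of 11 IQ-motif, calmodulin and calmodulin-dependent kinase genes tested, 2 were higher and none lower, with a median of 0.02. The 2 higher genes were the kinase genes Camk1 and Camk2g. Of 12 stefins and cysteine cathepsins tested, 1 was higher and none lower, with a median of 0.07. Stfa1 was at 7.61 and 12.2 CPM against 27.3 and 8.37 CPM and Cstdc4 at 0.170 and 2.93 CPM against 7.76 and 0.112 CPM, with overlapping groups. The high libraries for both genes, control 2 and mutant 1, are those that held the stefin-rich single cells.

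The genes whose log CPM followed each member most closely over the 36 library and gate points are given as a description, since the points share libraries, depth and gates. They also hold the contrast between mutants and controls that chose the members, so other genes higher in mutants can rank high by it. The genes were taken from 11868 by Pearson's r. Rabgef1 was followed by Eif3l (0.70), Tmem175 (0.67) and Tmem87b (0.67), and Nfe2l3 by Mat2a (0.79), Ddx55 (0.74) and Polr2a (0.67). Pcp4l1 was followed by Fam13c (0.85), Ebf3 (0.84) and Dok4 (0.80), and 1700001K19Rik by Zfand5 (0.83), Ciao2a (0.81) and Dand5 (0.81). Cstdc5 was followed by Dsg1a, Serpinb5 and Mir205hg, each at 0.95. Dsg1a encodes a desmosomal cadherin of stratified epithelium.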

How the data were processed

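Single-cell libraries of 2 control and 2 mutant noses were compared, grouped by the sample titles. The authors deposited raw UMI counts per gene and barcode. The file headers name Cell Ranger 8.0.1, whereas the submitters' processing notes name Cell Ranger 4, Seurat 4.3.0 and the build mm10. The labels name more than 1 sequencing provider without assigning libraries, so batch and genotype cannot be told apart, and they mention a further sample that was not analysed here. Scrublet (scanpy 1.11.5) marked 0 to 3 cells per library as doublets with its own threshold, so it had not worked. Doublets were kept, and the 56 to 163 cells with the highest scores per library were left out as an alternative.

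Counts were summed per library and gate and tested under R 4.3.3 by the quasi-likelihood F test of edgeR 4.0.16, after filterByExpr and TMM scaling, with Benjamini-Hochberg adjustment over all genes tested and a threshold of 0.05. DESeq2 1.42.0 was an alternative. Fold changes from edgeR include a small prior count. Ratios of pooled counts carry exact 95% conditional binomial intervals, which cover counting error only. Positions came from the GENCODE M21 annotation (GRCm38), in which 32235 of the 32285 features were found by their Ensembl IDs. Likeness was Pearson's r of log2(CPM + 1) over genes with a mean of at least 5 CPM.

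The 5 genes, the pathway lists and the gates were chosen with earlier results of these data known. All 5 genes are named in each comparison, with neighbours and list genes where both mutants lay outside the range of both controls and, for neighbours, the log2 difference was at least 0.5 in size, and the 3 genes most like each member. The region and layer splits, the single cells with many stefin UMIs, and the examples among list genes with overlapping groups were chosen after the values were seen. The edgeR scripts were tested on simulated data before use.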

Additional observations from a re-analysis of the deposited data

Results flagged for a closer look

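Several signals lay in cells that the comparisons between gates did not use, above the level in the controls. Cells in no gate held 306 Rabgef1 UMIs in the mutants, at 50.2 and 40.7 CPM against 21.4 and 18.2 CPM in controls, a ratio of 2.21 (exact 95% interval 1.79 to 2.75). The same cells held 163 Nfe2l3 UMIs in the mutants, at 24.2 and 23.5 CPM against 11.1 and 10.2 CPM, and 71 of 1700001K19Rik, at 8.20 and 12.0 CPM against 5.28 and 5.76 CPM. They held 96 Pcp4l1 UMIs in the mutants, at 15.4 and 13.0 CPM against 12.1 and 10.6 CPM, a ratio of 1.22 with an interval of 0.886 to 1.67.

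Gates with fewer than 20 cells in a library gave more such values for Rabgef1. The mast cell gate, whose controls had the highest Rabgef1 level of any gate at 84.8 and 86.0 CPM, held 16 mutant UMIs at 111 and 143 CPM, a ratio of 1.47 (0.700 to 3.05). The skeletal muscle gate held 20 mutant UMIs at 52.6 and 34.6 CPM against 14.4 and 9.83 CPM, a ratio of 3.69 (1.68 to 8.52). The melanocyte gate had the same order, at 49.2 and 57.4 CPM in controls against 126 and 81.1 CPM in mutants. That ratio of 1.82 (0.377 to 7.66) rests on 6 control and 4 mutant UMIs. The values that follow did not show this order. In the simple epithelium gate, with 9 cells in control 2, Rabgef1 was at 13.5 and 49.6 CPM in controls against 60.3 and 45.1 CPM in mutants. The groups overlapped, although the pooled ratio was 3.53 (2.25 to 5.78), and control 2 had 4 Rabgef1 UMIs. Nfe2l3 was at 35.5 and 49.6 CPM against 49.9 and 40.5 CPM there, so its groups overlapped as well. In skeletal muscle, 1700001K19Rik had 1 and 6 UMIs in controls and 1 and 0 in mutants, and Pcp4l1 had 1 and 1 in controls and 0 and 0 in mutants. The single neutrophil-gated cell, in mutant 1, held 327 Cstdc5 UMIs, and the controls had no cell in that gate.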

How the results depend on the processing

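Counts of genes past the threshold moved most when a library or the filter on low counts was left out. Leaving out each library in turn gave 0 to 410 genes over all cells, 0 to 145 in glia, 0 to 299 in the neuron gate, 0 to 627 in keratinocytes, 0 to 30 in chondrocytes, 0 to 173 in osteoblasts, 41 to 188 in endothelium, 0 to 305 in mural cells, 1 to 194 in macrophages, 15 to 393 in mesenchyme and 1 to 190 for the difference between gates. The highest value came without control 1, except in endothelium, where it came without mutant 2. With all libraries these counts were 0, 0, 0, 3, 0, 0, 5, 42, 6, 3 and 10. Without the filter they were 10, 52, 77, 230, 52, 54, 208, 270, 175, 622 and 654. DESeq2 gave 30 over all cells, 11 in keratinocytes, 10 in endothelium and 55 in mesenchyme. Stricter cells gave 6 in mural cells, 27 in macrophages and 0 in mesenchyme. Leaving out the highest doublet scores gave 8 in keratinocytes, 9 in endothelium, 125 in mural cells, 0 in mesenchyme and 2 for the difference between gates. Gates of at least 4 markers gave 6 in keratinocytes, 94 in mural cells, 23 in macrophages, 0 in mesenchyme and 43 for the difference. Gates of at least 2 markers gave 0 in keratinocytes, 2 in endothelium and 3 in macrophages. The difference between gates gave 5 genes without the mural gate and 20 without the neuron gate. The cause of these changes was not tested.

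Of the 32 edgeR values of the 5 genes, none passed; 14 of 35 passed without control 1, 4 of 40 without control 2, 2 of 34 without mutant 1, 4 of 36 without mutant 2, 8 of 40 with DESeq2, 13 of 49 without the filter and 1 of 28 without the highest doublet scores. Of 371 alternative log2 differences, 47 moved by at least the spread between replicates (1 SD) and 2 changed sign, both of Nfe2l3 without mutant 2: -0.84 in macrophages and -0.07 in osteoblasts. Leaving out control 1 raised 10 of them by over 1.5 times in fold. Those of Rabgef1 went from 1.20 to 1.80 in keratinocytes, 1.80 to 2.84 in endothelium and 1.36 to 2.43 in mural cells, that of Nfe2l3 from 1.86 to 2.87 in endothelium, that of Pcp4l1 from 0.35 to 1.49 in keratinocytes and that of Cstdc5 from 2.23 to 3.07 in mesenchyme. Those of 1700001K19Rik went from 1.45 to 2.36 in glia, 0.66 to 1.99 in osteoblasts, 0.92 to 1.58 in endothelium and 0.95 to 2.28 in macrophages. Without control 2 the macrophage value of 1700001K19Rik was 0.31, and without mutant 1 its endothelium value was 0.31. No gene of the 5 passed the test of the difference between gates under any alternative, with adjusted p-values of at least 0.584. Stricter cells and gates of at least 4 markers left too few glia to compare, and the latter too few neurons. Control gate levels could not be tested with a control left out.

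Libraries share replicate numbers in their titles. Same-numbered libraries deviated together at r = -0.03 over all cells and -0.05 to 0.13 over the gates, so the main tests did not treat them as pairs. With 2 libraries per group such values cannot exclude a pairing. With the replicate number as a block the counts were 17 in keratinocytes, 69 in osteoblasts, 157 in endothelium, 254 in mural cells, 1 in macrophages and 45 in mesenchyme, and 7 of 32 values of the 5 genes passed.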
